A study of Gallus gallus with 15 samples.

Results

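In the hypothalamus of broiler chicks at the day of hatch (DOH), 33 genes had a lower mean in chicks incubated under white light (White) and a higher mean in chicks given green light only at the end of incubation (G3D) than in chicks incubated in the dark (Control). They were chosen by these differences: on the scale of log2(CPM + 1), where CPM is the count scaled to a library total of 1000000, the White mean had to lie at least 0.3 below and the G3D mean at least 0.3 above the Control mean. The 33 genes are 0.503% of the 6564 genes with a mean count of at least 50 over the 15 libraries, and the deposited table holds 24356 genes. A further pair of genes was left out by the rule, but neither would have met it: IGFBP5 differed by -0.09 in White and 0.66 in G3D, and COL1A2 by 0.07 in White and 1.06 in G3D. The third lit group, which had green light throughout incubation (Green), entered the choice only through the mean count over all libraries, and its difference from Control was not used.

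All eggs were broiler eggs, incubated under lamps of even intensity or in the dark. G3D eggs (4 libraries) received green monochromatic illumination in the last 3 days of incubation, Green eggs (3 libraries) received it during the whole of incubation and hatching, White eggs (4 libraries) received white light over the same whole period, and Control eggs (4 libraries) received none. RNA came from 1 hypothalamic hemisphere of each chick as whole tissue lysate and was read by bulk MARS-Seq, which counts the 3′ ends of transcripts and uses molecular identifiers to remove duplicates. The labels state male chicks for Green, White and Control and give no sex for G3D, while the paper's caption to these profiles describes male broiler chicks. Neither the labels nor the methods say which of the study's incubation trials each chick came from. Total counts were between 3944530 and 9501555 per library. In such bulk RNA, fewer cells of a type and less RNA per cell cannot be told apart.

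The hypothalamus is the part of the forebrain that controls feeding, growth, body temperature and reproduction through neuropeptides and the pituitary. In birds, light passes through the eggshell and skull, and photoreceptors in the hypothalamus itself as well as in the retina and pineal gland respond to it. The group means of a gene under white and green light can therefore be set against darkness to ask whether colour and timing of illumination go with different levels.

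The 33 genes are given by their Ensembl identifiers because none is paired with a symbol in the sources used here, although 568 other identifiers are. The symbols came from the authors' supplementary table, which the paper cites for its genes differing from Control. The lack of a symbol here therefore does not mean that a gene is unannotated. Without symbols, no role is stated for any of the 33 genes. Their mean counts ran between 53.5 and 1389 with a median of 164, against a median of 244 over the 6564 genes, and their mean levels were between 7.85 and 206 CPM. CPM of 3′ end counts is not divided by transcript length.

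**Figure D1:**
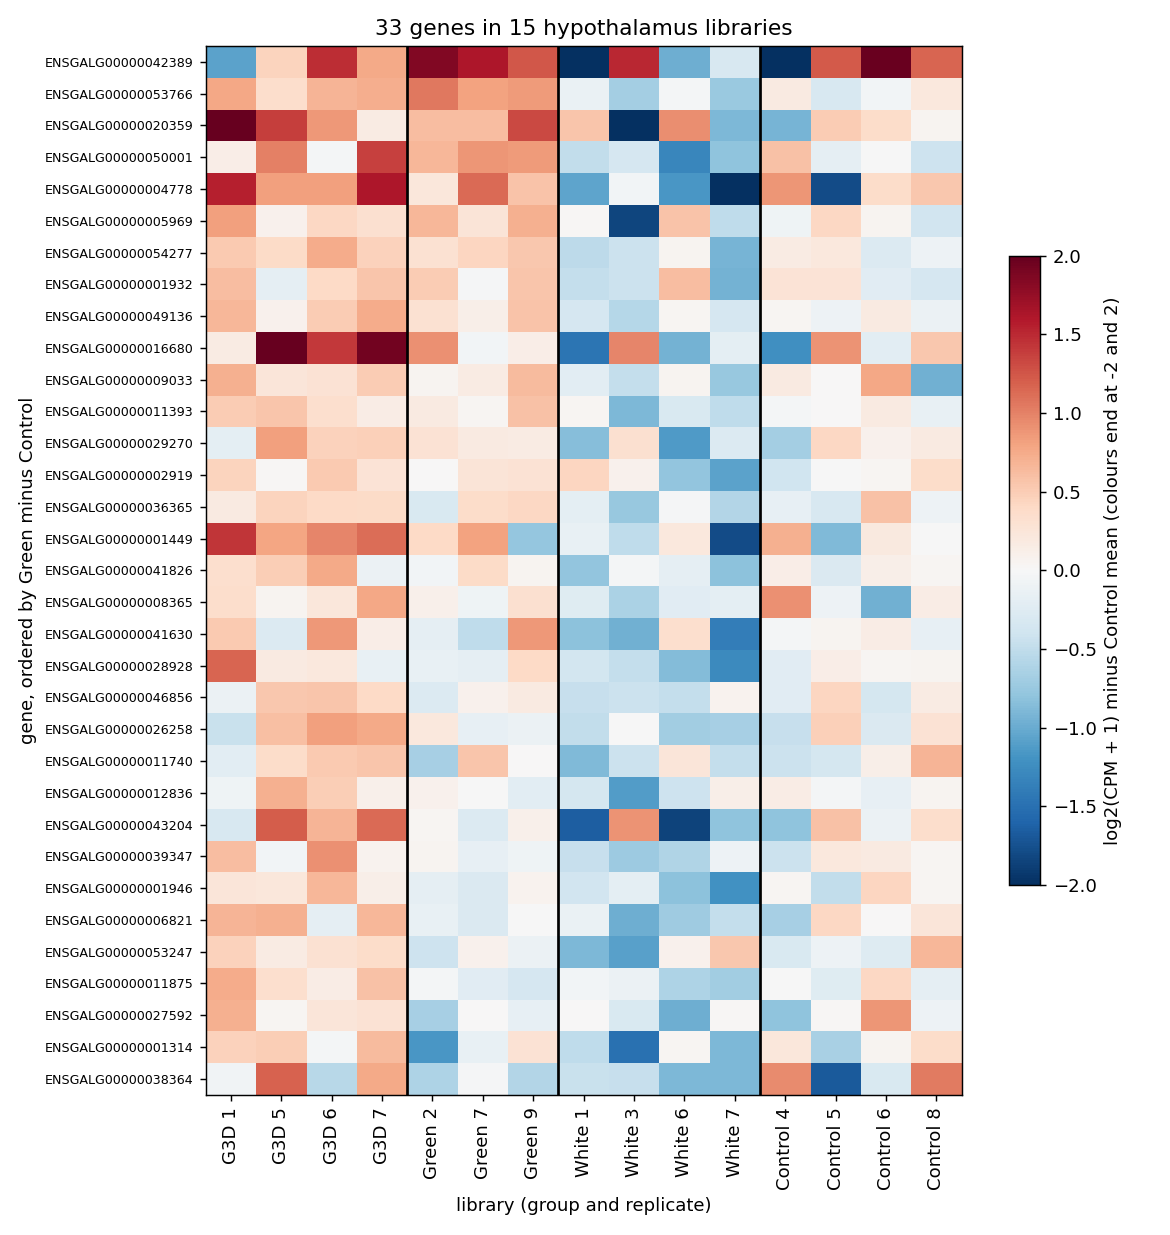
Difference of each library from the Control mean, on the scale of log2(CPM + 1), for the 33 genes (down the page, ordered by Green minus Control) in the 15 libraries (across, by group and replicate number). Red is above and blue below the Control mean, and colours end at -2 and 2. The G3D and White columns are red and blue because the genes were chosen so, with medians over genes of 0.45 to 0.51 in the G3D libraries and -0.69 to -0.42 in the White libraries, while the Green columns have medians of 0.06 to 0.28.

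The differences that chose the genes are given as a description only. G3D minus Control had a median of 0.39 over the 33 genes and a range of 0.31 to 1.39, against a median of 0.04 over the 6564 genes. White minus Control had a median of -0.46 and a range of -1.15 to -0.30, against a median of 0.08 over the 6564 genes. Most genes thus sat close to the threshold of the rule: the G3D difference reached 0.5 in 9 genes, the White difference reached -0.5 in 12, and both did so in 5. Just inside the White threshold were ENSGALG00000049136 at -0.30, ENSGALG00000001932 at -0.31 and ENSGALG00000027592 at -0.31. Just outside it were ENSGALG00000030672 at -0.29, ENSGALG00000021525 at -0.29 and ENSGALG00000016524 at -0.28. Just inside the G3D threshold were ENSGALG00000011740, ENSGALG00000012836 and ENSGALG00000001946, each at 0.31. Just outside it were ENSGALG00000011255, ENSGALG00000048488 and ENSGALG00000037737, each at 0.30 after rounding.

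Single chicks overlapped widely between the groups even for differences that were selected. In 0 of the 33 genes did all White libraries lie below and all G3D libraries above the 4 Control libraries, as in 0.0% of the 6564 genes. All 4 G3D libraries lay above all 4 Control libraries in 3 genes, where 6.05% of the 6564 genes showed this. All 4 White libraries lay below all 4 Control libraries in 1 gene, against 0.701% of the 6564 genes. G3D libraries lay entirely above White libraries in 15 of the 33 genes, against 4.52% of the 6564 genes, and this too follows from the choice. In edgeR's quasi-likelihood test across 10475 genes, all 33 of them included, 0 of the 33 had an adjusted p below 0.05 in G3D, where 0.0955% of all genes tested did, and 0 of the 33 in White, where 0.0% did. The smallest edgeR adjusted p among the 33 genes was 0.138 in G3D and 0.785 in White. At an unadjusted p below 0.05, edgeR had 5 of the 33 genes higher in G3D, where 6.81% of all genes tested were, and 15 lower in White, where 3.01% of all genes tested were, which restates the choice of genes.

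The Green mean lay between the means of the other lit groups in most of these genes. On the log2(CPM + 1) scale, Green minus Control had a median of 0.13 over the 33 genes, against 0.01 over the 6564 genes, and ran from -0.41 to 1.57. The 1.57 belongs to ENSGALG00000042389, in which Control replicate 4 had 1.80 CPM and the other Control libraries 128 to 226 CPM. All 3 Green libraries of that gene lay within the Control range. Its edgeR log2 fold change in Green was 0.49 with an SE of 1.07. The next highest difference was 0.90. The Green mean was above the Control mean in 20 genes and below it in 13. It lay between the White and the G3D mean in 29 genes, above the G3D mean in 4 and below the White mean in none of the 33, and a choice of genes with low White and high G3D means favours this place. Of the other group means, the nearest to Green was Control in 17 genes, G3D in 13 and White in 3. No share over the 6564 genes is given for this, so it is not read as a trait of the 33. Green was set against the same 4 Control libraries that chose the genes, so the comparisons are not independent of each other.

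**Figure D2:**
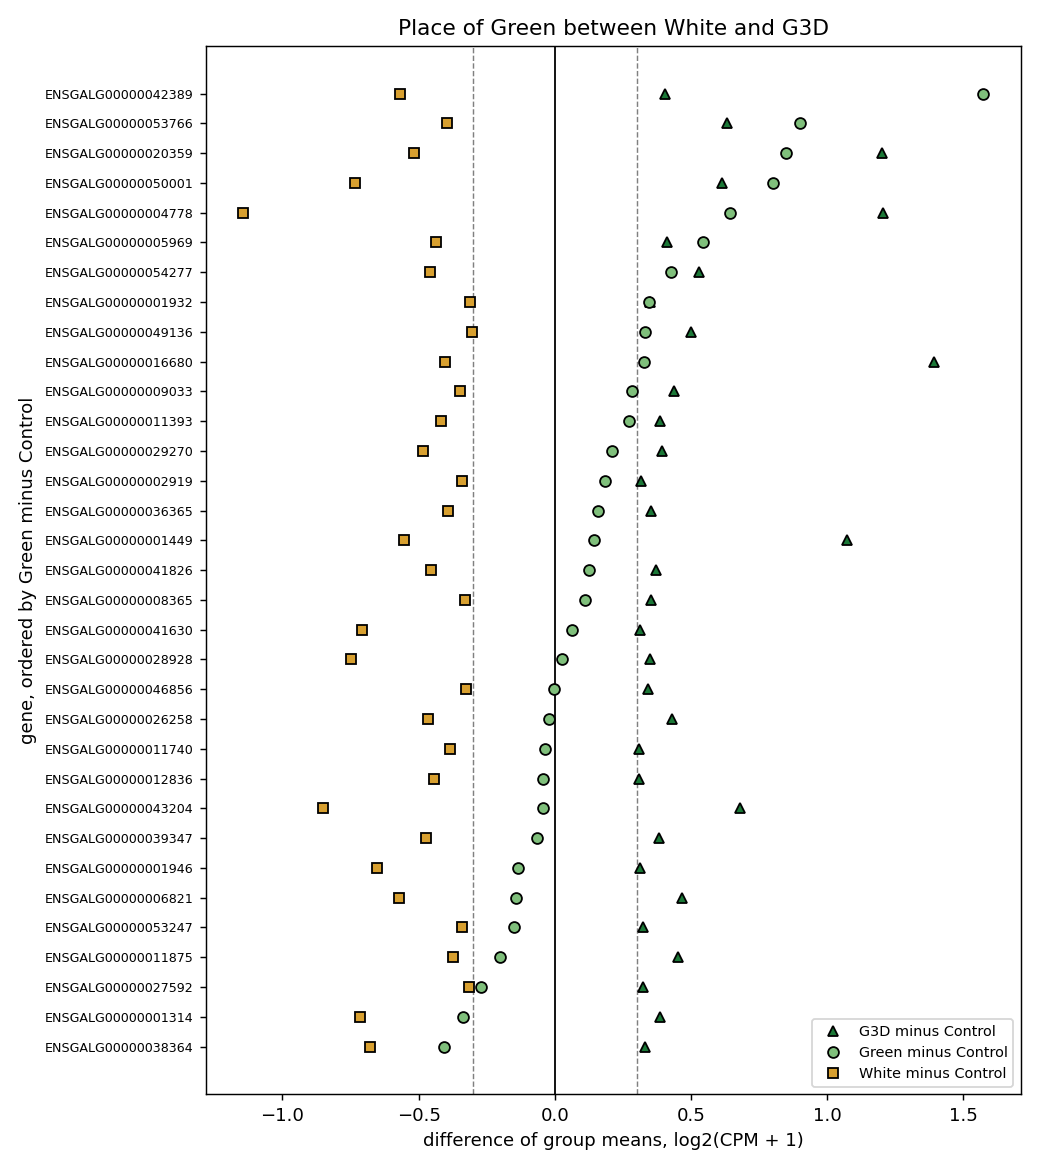
Difference of the G3D, Green and White group means from the Control mean, on the scale of log2(CPM + 1), for each of the 33 genes, ordered by the Green difference. Dashed lines mark the thresholds of -0.3 and 0.3 that chose the genes on the White and G3D differences. The Green points spread from -0.41 to 1.57, and 21 of the 33 lie between the dashed lines. The highest point, ENSGALG00000042389, is set against a Control mean that holds 1 library at 1.80 CPM.

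By size, Green was at least 0.3 above Control in 10 of the 33 genes (30.3%), where 11.2% of the 6564 genes were. It was at least 0.3 below Control in 2 genes (6.06%), where 13.2% of the 6564 genes were. All 3 Green libraries lay above all 4 Control libraries in 4 genes (12.1%), against 6.25% of the 6564 genes, and below all of them in 0, against 3.75% of the 6564 genes. The number of genes with Green wholly above Control was 8 without Green replicate 7 and 7 without Control replicate 6. With fewer libraries a lack of overlap is reached more easily. No share over the 6564 genes is given for these repeats, so the higher counts are not read as a larger difference. In 14 of the 33 genes all 3 Green libraries fell inside the range of the Control libraries, where 25.8% of the 6564 genes did. The spread over Green libraries had a median SD of 0.25 in the 33 genes and of 0.20 in the 6564 genes.

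In the edgeR test of Green against Control, 0 of the 33 genes had an adjusted p below 0.05, as had 0.0% of the 10475 genes tested. The smallest edgeR adjusted p among the 33 was 0.202. At an unadjusted p below 0.05, edgeR had 2 of the 33 genes higher in Green (6.06%), where 3.58% of all genes tested were higher, and 0 lower, where 3.58% were lower. Across all genes the unadjusted counts were 375 higher and 375 lower, and DESeq2 called 23 genes at an adjusted p below 0.05. The edgeR log2 fold change was above 0 in 19 of the 33 and below 0 in 14, with a median of 0.16 against -0.01 over all genes tested. That median was 0.03 without Green replicate 9. In the two-sided exact permutation test of single genes, 3 against 4 libraries cannot give a p below 0.0571, and the 4 genes whose Green and Control libraries did not overlap had that value.

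Among the 4 genes with the highest edgeR fold change in Green, ENSGALG00000053766 had the smallest SE. It had 119, 88.5, 111 and 115 CPM in the G3D libraries and 144, 121 and 125 CPM in the Green libraries. It had 62.9, 42.9, 67.2 and 41.1 CPM in the White libraries, against 78.1, 54.9, 66.8 and 79.8 CPM in the Control libraries. Both green-lit groups lay wholly above Control, and this was the 1 gene of the 33 in which every Green library was also above every G3D library, as in 1.68% of the 6564 genes. The edgeR log2 fold change of Green against Control was 0.90 with an SE of 0.18 and an adjusted p of 0.202. DESeq2 gave an adjusted p of 0.00521, and edgeR on all genes with at least 1 count gave 0.0213, so the call for this gene depended on the tool and the filter. Without White replicate 7 the gene no longer met the rule.

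ENSGALG00000050001 had the highest mean count of the 33 genes. Its G3D libraries had 178, 328, 158 and 425 CPM and its Green libraries 259, 302 and 296 CPM. Its White libraries had 116, 129, 65.2 and 93.2 CPM, against 246, 145, 163 and 123 CPM in the Control libraries. The Green libraries were close together and above every Control library, whereas the G3D libraries split into a high and a low pair that overlapped Control. The edgeR log2 fold change of Green was 0.75 with an SE of 0.34 and an adjusted p of 0.682.

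ENSGALG00000020359 had 51.4, 24.9, 17.2 and 10.2 CPM in G3D libraries and 14.3, 14.3 and 23.9 CPM in Green libraries. White libraries had 13.6, 0.594, 18.0 and 4.33 CPM, against 4.23, 13.2, 11.9 and 9.41 CPM in Control libraries. White libraries fell on both sides of Control, with replicate 3 near 0, and without that replicate the gene no longer met the rule. The Green log2 fold change was 0.84 with an SE of 0.76 and an edgeR adjusted p of 0.822.

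ENSGALG00000005969 had 42.9, 25.3, 31.9 and 29.95 CPM in G3D libraries and 38.4, 28.4 and 39.3 CPM in Green libraries. White libraries had 24.1, 5.94, 35.7 and 16.3 CPM, against 22.3, 32.0, 24.6 and 18.0 CPM in Control libraries. Here 1 Green library lay inside the Control range, and the highest White library was above every Control library. The Green log2 fold change was 0.53 with an SE of 0.39 and an edgeR adjusted p of 0.772.

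The remaining gene without overlap between Green and Control was ENSGALG00000054277, named after its values were seen. It had 31.8, 28.6, 37.2 and 30.3 CPM in G3D libraries and 27.2, 29.5 and 32.0 CPM in Green libraries. White libraries had 14.8, 15.9, 22.6 and 10.9 CPM, against 24.4, 25.3, 17.8 and 20.2 CPM in Control libraries. Both green-lit groups lay above every Control library, and 3 of the 4 White libraries lay below every Control library. Without White replicate 7 this gene too no longer met the rule. The edgeR log2 fold change of Green was 0.42 with an SE of 0.20 and an adjusted p of 0.689.

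**Figure D3:**
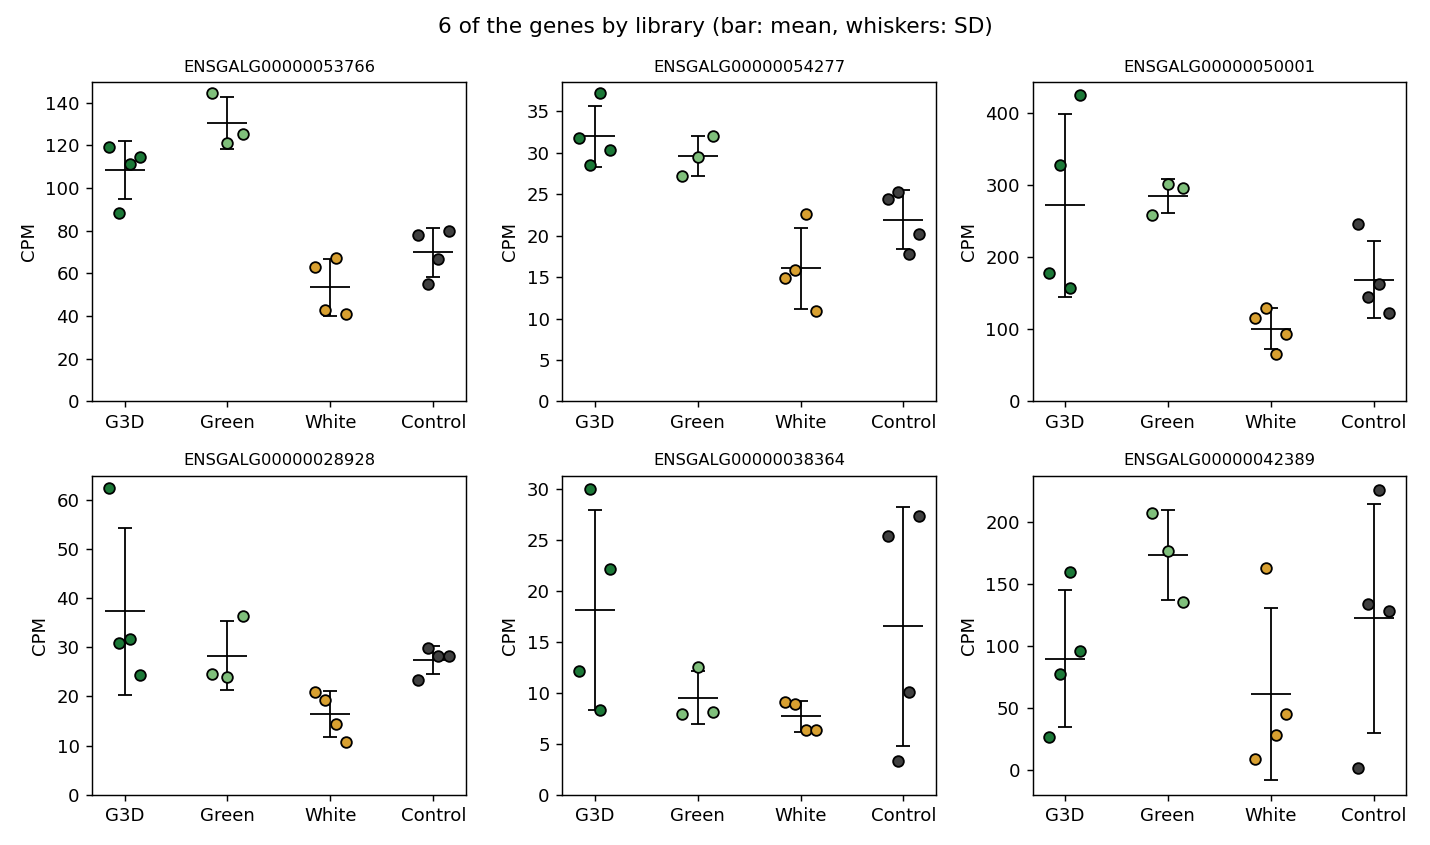
CPM of 6 of the 33 genes in each library, by group, where points are libraries, long bars are group means and whiskers are the SD (n = 4 in G3D, White and Control, n = 3 in Green). In ENSGALG00000053766 and ENSGALG00000054277 all G3D and Green points lie above all Control points, in ENSGALG00000028928 all White points lie below them, and in ENSGALG00000042389 1 Control point at 1.80 CPM lies far below the other 3.

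At the other end, the 4 genes with the lowest edgeR fold change in Green all overlapped Control. ENSGALG00000038364 had 12.1, 29.95, 8.34 and 22.1 CPM in G3D libraries and 7.92, 12.5 and 8.14 CPM in Green libraries. White libraries had 9.10, 8.91, 6.34 and 6.31 CPM, against 25.4, 3.26, 10.1 and 27.3 CPM in Control libraries. Control and G3D each split into a high and a low pair, while Green and White held low values only. The Green log2 fold change was -0.78 with an SE of 0.56 and an edgeR adjusted p of 0.767.

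ENSGALG00000027592 had 14.5, 8.77, 10.2 and 10.6 CPM in G3D libraries and 4.996, 8.57 and 7.46 CPM in Green libraries. White libraries had 8.50, 6.68, 3.80 and 8.67 CPM, against 4.44, 8.63, 16.5 and 7.84 CPM in Control libraries. The highest library of all was Control replicate 6, and without it the Green log2 fold change of -0.42 (SE 0.39, edgeR adjusted p 0.819) became 0.02.

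ENSGALG00000001314 had 25.9, 26.3, 17.9 and 29.0 CPM in G3D libraries and 7.68, 16.6 and 22.9 CPM in Green libraries. White libraries had 12.7, 5.94, 19.0 and 9.41 CPM, against 21.7, 11.5, 19.3 and 24.0 CPM in Control libraries. The lowest Green library was below every Control library and the highest was near the top of the Control range, and without Green replicate 2 the log2 fold change of -0.30 (SE 0.37, edgeR adjusted p 0.878) became 0.03.

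ENSGALG00000011875 had 34.3, 25.4, 22.2 and 30.5 CPM in G3D libraries and 19.4, 17.0 and 15.6 CPM in Green libraries. White libraries had 19.2, 18.3, 12.7 and 12.01 CPM, against 19.97, 16.8, 27.0 and 17.6 CPM in Control libraries. All 3 Green libraries were below all 4 G3D libraries, and 2 of them lay within the Control range. The Green log2 fold change was -0.24 with an SE of 0.24 and an edgeR adjusted p of 0.839. Green libraries lay wholly below G3D libraries in 4 of the 33 genes, against 2.62% of the 6564 genes, and wholly above White libraries in 8, against 5.21%. Both counts involve groups that were chosen as high or low.

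A few further genes were picked out after their values were seen, because their libraries separated most clearly or most oddly. ENSGALG00000028928 was the gene with every White library below Control. It had 62.4, 31.0, 31.7 and 24.4 CPM in G3D libraries and 24.5, 23.9 and 36.4 CPM in Green libraries. White libraries had 21.0, 19.3, 14.5 and 10.6 CPM, against 23.2, 29.9, 28.2 and 28.2 CPM in Control libraries. The White values form a low group of their own, whereas the G3D mean rests mainly on replicate 1. The gene no longer met the rule without that library or without Control replicate 4.

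ENSGALG00000001449 was 1 of the 3 genes with every G3D library above Control. It had 25.4, 15.9, 18.3 and 20.3 CPM in G3D libraries and 11.9, 16.2 and 4.75 CPM in Green libraries. White libraries had 7.91, 5.94, 10.4 and 1.86 CPM, against 15.0, 4.32, 10.2 and 8.78 CPM in Control libraries. Green replicates lay within and above the Control range. Replicate 7 was the lowest White library by far, and without it the gene no longer met the rule.

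ENSGALG00000004778 had the most negative White difference, -1.15, beside a G3D difference of 1.20. It had 42.4, 25.1, 25.0 and 44.5 CPM in G3D libraries and 16.3, 31.4 and 20.9 CPM in Green libraries. White libraries had 6.13, 13.2, 5.58 and 1.98 CPM, against 26.1, 3.26, 18.1 and 20.5 CPM in Control libraries. Only Control replicate 5 was as low as the White libraries, and the gene met the rule whichever library was left out.

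Some genes shared a pattern over libraries that crossed the groups, described for a pair of libraries picked after the values were seen. Over the 33 genes, Control replicate 4 was the lowest Control library in 13. G3D replicate 5 was the lowest G3D library in 13 and G3D replicate 1 in 9. No share over the 6564 genes is given for these counts. Over all genes tested by edgeR, the deviations of Control replicate 4 and G3D replicate 1 from their group means had a correlation of 0.00789. A low Control library lowers the Control mean, which widens the G3D difference and narrows the White difference. The net part of this in the choice of genes was not tested. Control replicate 4 and G3D replicate 1 were both the lowest library of their group in 6 of the 33 genes (18.2%), where 6.54% of the 6564 genes showed this, and both the highest in 2 (6.06%), where 3.81% did. Control and G3D libraries chose the genes, and this pair was picked from their values, so nothing is concluded from these shares. ENSGALG00000042389 showed the low pair most strongly, with 26.6, 77.7, 160 and 96.4 CPM in G3D libraries and 208, 177 and 136 CPM in Green libraries. White libraries had 9.30, 164, 28.4 and 45.2 CPM, against 1.80, 135, 226 and 128 CPM in Control libraries. The G3D mean of CPM values, 90.2 ± 55.2 (SD, n = 4), was below the Control mean, 122.7 ± 92.2 (SD, n = 4), so the gene entered through the log scale, on which the low Control library weighs most. Its G3D difference was 0.40 by the rule, while the edgeR log2 fold change was -0.51, the 1 value below 0 among the 33 genes in G3D.

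ENSGALG00000016680 also had G3D replicate 1 and Control replicate 4 lowest in their groups. It had 19.8, 76.2, 48.1 and 69.6 CPM in G3D libraries and 33.8, 16.7 and 19.3 CPM in Green libraries. White libraries had 5.74, 35.4, 8.62 and 15.2 CPM, against 6.87, 33.6, 15.0 and 25.9 CPM in Control libraries. As in the gene before it, White replicate 3 stood above the other White libraries.

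ENSGALG00000043204 had 8.55, 26.6, 18.1 and 24.9 CPM in G3D libraries and 11.2, 8.84 and 11.7 CPM in Green libraries. White libraries had 2.77, 21.2, 2.28 and 5.82 CPM, against 5.81, 16.7, 9.89 and 14.1 CPM in Control libraries. White replicate 3 was again the highest White library and exceeded every Control library, and the White mean was low through the other 3.

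ENSGALG00000029270 had 25.2, 52.0, 40.04 and 40.7 CPM in G3D libraries and 35.5, 32.9 and 32.6 CPM in Green libraries. White libraries had 15.6, 36.2, 12.7 and 23.8 CPM, against 17.6, 39.0, 30.7 and 32.9 CPM in Control libraries. ENSGALG00000026258 had 28.9, 61.0, 71.5 and 68.1 CPM in G3D libraries and 46.6, 35.4 and 36.8 CPM in Green libraries. Its White libraries had 28.1, 39.5, 24.3 and 24.8 CPM, against 28.7, 55.7, 32.5 and 48.8 CPM in Control libraries. In both genes G3D replicate 1 and Control replicate 4 lay inside the range of the White libraries. The sixth gene with this pattern was ENSGALG00000011740, in which White replicate 6, at 89.2 CPM, and not replicate 3, at 55.4 CPM, was the highest White library.

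The choice of genes depended on single libraries. With each library left out in turn, between 26 and 59 genes met the rule. Without Control replicate 4 only 16 of the 33 remained, without Control replicate 5 there were 20, and without Control replicate 6 or 8 there were 21. Leaving out a White library kept between 23 and 27 of the 33, and leaving out a G3D library kept between 24 and 28. The highest total, 59, came without White replicate 6. Only ENSGALG00000050001, ENSGALG00000004778 and ENSGALG00000043204 met the rule in all 15 of these repeats, 7 further genes met it in 14, and 6 met it in fewer than 10.

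**Figure D4:**
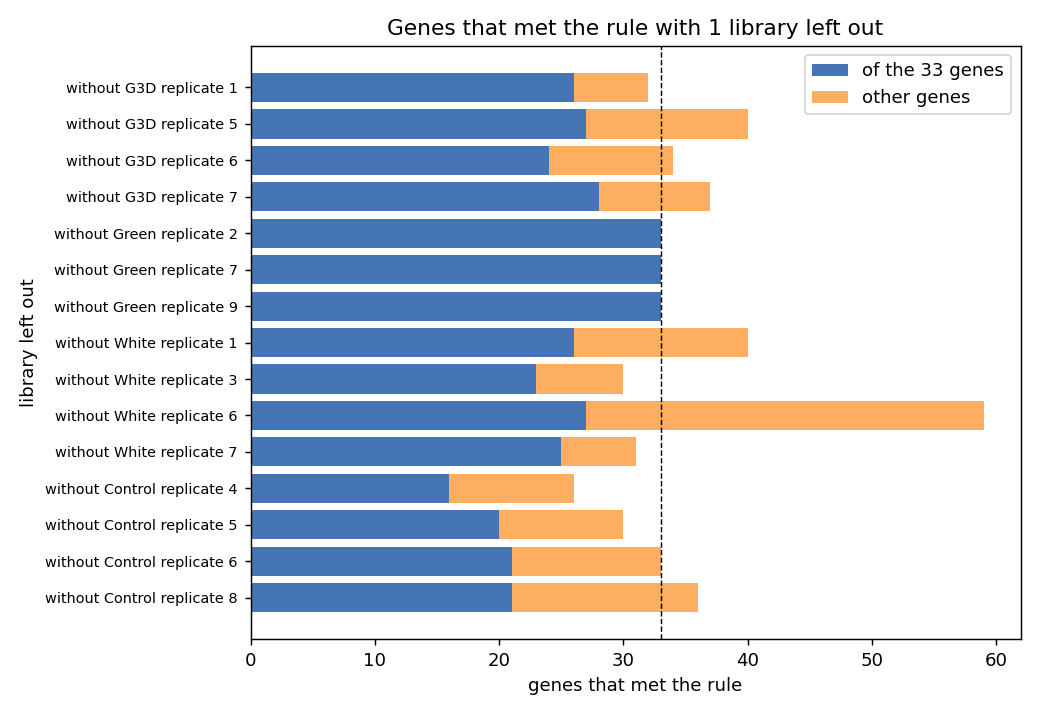
Number of genes that met the rule in 15 repeats that each lacked 1 library, split into those of the 33 genes (blue) and others (orange), where the dashed line marks 33. Leaving out a Green library keeps all 33 genes and adds none, and leaving out Control replicate 4 keeps the fewest of the 33 genes, 16.

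Because none of the 33 genes carries a symbol, the wider set of 104 genes that passes differences of -0.2 and 0.2 was searched for named genes, and 2 were found. Names came only from the authors' table of genes differing from Control. These 2 genes are therefore not a sample of the 104, and neither met the White threshold of the rule. FMOD encodes fibromodulin, a small leucine-rich proteoglycan that binds collagen. FMOD had 21.1, 48.4, 39.1 and 58.6 CPM in G3D libraries and 21.6, 16.5 and 22.5 CPM in Green libraries. White libraries had 14.4, 26.4, 15.7 and 12.9 CPM, against 19.5, 30.1, 13.7 and 18.2 CPM in Control libraries. All 3 Green libraries lay within the Control range, and the differences from Control were 0.96 in G3D, 0.03 in Green and -0.22 in White.

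MMP15 encodes a membrane-type matrix metalloproteinase, an enzyme that cleaves matrix proteins at the cell surface. MMP15 had 26.5, 24.8, 38.6 and 26.4 CPM in G3D libraries and 24.1, 16.1 and 25.9 CPM in Green libraries. White libraries had 14.6, 11.6, 17.5 and 15.1 CPM, against 14.1, 17.9, 21.1 and 16.2 CPM in Control libraries. The lowest G3D library exceeded the highest Control library, Green overlapped Control, and the differences were 0.71 in G3D, 0.32 in Green and -0.22 in White.

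Of 178 symbols in the lists of cell type markers and pathways, 13 could be given an identifier, and none of the 13 belongs to the 33 genes. Identifiers came only from the authors' table, which the paper cites for its genes differing from Control. The 13 are therefore not a sample of the lists, and differences of lit groups from Control are favoured among them. The connective tissue list had 4 of 23 markers (COL1A2, COL6A2, FMOD and IGFBP5), whose summed level was 156 to 202 CPM in G3D libraries, 117 to 122 CPM in Green libraries, 83.4 to 102 CPM in White libraries and 90.5 to 104 CPM in Control libraries. This sum was thus higher in every G3D and every Green library than in any Control library, while White and Control overlapped. Taken singly, none of the 4 markers had every Green library above every Control library. The way the symbols were found favours such a difference, so nothing is concluded from it. The hypothalamus list had SIX3, a forebrain transcription factor, and AGRP, an appetite-stimulating neuropeptide, of 13 markers. Their sum was 220 to 265 CPM in G3D libraries, 187 to 262 CPM in Green libraries, 124 to 231 CPM in White libraries and 109 to 140 CPM in Control libraries. AGRP itself had 0.744 to 60.1 CPM in G3D libraries and 0.487 to 43.0 CPM in Green libraries. It had 0 to 34.0 CPM in White libraries and 0 to 2.95 CPM in Control libraries. It had 0 counts in White replicate 7 and Control replicate 4, where 3 counts would be 0.371 and 0.317 CPM. In G3D replicate 7 and Green replicate 2 it had 4 counts each, so libraries near the floor occurred in all groups. The neuron list had GAD2, SNAP25 and STMN2 of 9 markers, at 2773 to 3985 CPM in G3D libraries, 2802 to 3425 CPM in Green libraries, 2949 to 3593 CPM in White libraries and 2472 to 3103 CPM in Control libraries. STMN2 made up most of this sum and differed by 0.36 between G3D and Control on the log2(CPM + 1) scale, while SNAP25 differed by -0.41 and GAD2 by -0.86, so the 3 markers differed in direction. GAD2, an enzyme that makes the transmitter GABA, had 6.91 to 11.9 CPM in G3D libraries, 10.3 to 18.3 CPM in Green libraries, 13.3 to 26.9 CPM in White libraries and 12.8 to 22.3 CPM in Control libraries. CFAP45, a cilium protein and 1 of 5 markers of ependyma and choroid plexus, had 16.7 to 36.7 CPM in G3D libraries, 26.3 to 34.4 CPM in Green libraries, 16.5 to 26.6 CPM in White libraries and 13.7 to 18.3 CPM in Control libraries. The part of these marker levels in the differences of the 33 genes was not tested.

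Among the pathway lists, PDE6G, a phosphodiesterase subunit of the photoreceptor cascade, was the only 1 of 10 light-sensing symbols with an identifier. The others could not be looked up, and PDE6G could be because the authors' table of genes differing from Control named it. PDE6G had 13.95 to 29.8 CPM in G3D libraries, against 8.62 to 13.998 CPM in Control libraries. Green libraries had 14.6 to 15.1 CPM and White libraries 8.62 to 13.1 CPM, so that Green lay above both White and Control. CRYM, which binds thyroid hormone, was 1 of 11 symbols of the thyroid and seasonal list and had 135 to 196 CPM in G3D libraries, 124 to 152 CPM in Green libraries, 120 to 176 CPM in White libraries and 94.9 to 135 CPM in Control libraries. No symbol of the clock or activity-regulated lists, and none for blood vessel, red blood cell, pituitary, glia, microglia or epithelium, had an identifier, so these were not analysed here.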

How the data were processed

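Hypothalamic RNA of 15 chicks was measured. According to the methods and the submitters' processing notes, the authors trimmed adapters with Cutadapt, mapped reads with STAR onto 1000 bases of 3′ UTR per gene (GRCg6a), flagged duplicates by molecular identifier and counted reads per gene with HTSeq. The deposited values are counts, not normalized. Samples were grouped by the lighting regime in their labels. Each count was divided by its column total, multiplied by 1000000, and log2 was taken with a pseudocount of 1. The members, marker lists and comparisons were chosen with earlier results of these data known. Counts were fitted with edgeR 4.0.16 in R 4.3.3 (filterByExpr, TMM, robust quasi-likelihood, all 15 libraries, group only, Benjamini-Hochberg). This test gives no SE, so each edgeR SE is the absolute log2 fold change divided by the square root of the F statistic. The study used DESeq2, run here as an alternative (version 1.42.0) beside limma-voom (limma 3.58.1). The code was tested on simulated data. Exact tests used scipy 1.17.1. P-values set a difference between groups against the spread between chicks within groups, which edgeR estimated from all 15 libraries. Incubation trials could not be modelled.

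The genes named were the 4 with the highest and the 4 with the lowest edgeR fold change of Green, the 3 on each side of each threshold, members with a symbol or on a list, members called by edgeR, and members whose White libraries all lay below and G3D libraries all above Control. The last 3 kinds held no gene. Others are said to be picked after their values were seen, as were FMOD and MMP15. The authors' supplementary table was used for symbols only. As the paper cites it for its differentially expressed genes, genes without such a call could mostly not be named.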

Additional observations from a re-analysis of the deposited data

Results flagged for a closer look

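Over the 33 genes, Dixon's ratio flagged a single library in 4 of the 99 groups of 4 libraries examined. The ratio is the gap from that library to its nearest neighbour, divided by the range of the group, on the log2(CPM + 1) scale. A rate of 1 in 20 would give about 4.95 flags. That rate holds for unselected groups, whereas these Control, White and G3D libraries chose the genes, so nothing is concluded from the count. The values below are in CPM, on which the ratio differs. ENSGALG00000042389 had 1.80 CPM in Control replicate 4, with 128 to 226 CPM in the other Control libraries. ENSGALG00000006821 had 6.67 CPM in G3D replicate 6, with 12.7 to 13.2 CPM in the other G3D libraries. ENSGALG00000008365 had 16.3 CPM in White replicate 3, with 21.8 to 22.5 CPM in the other White libraries. ENSGALG00000046856 had 14.6 CPM in White replicate 7, with 9.63 to 9.95 CPM in the other White libraries.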

How the results depend on the processing

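The number of genes that met the rule was 33, and 50 with TMM scaling, 50 with DESeq2 size factors, 60 at a mean count of at least 20, 11 at a threshold of 0.4, 104 at 0.2, and between 26 and 59 with 1 library left out. TMM scaling and DESeq2 size factors each kept 28 of the 33. With group medians in place of means 36 genes met the rule, of which 21 were among the 33. Green calls over all genes numbered 0, but 23 with DESeq2, 3 with all genes of at least 1 count, 1 with only the 2 groups compared, and 0 to 1 with 1 library left out (1 without Green replicate 7). White calls numbered 0 (unadjusted edgeR p below 0.05 in 254 genes higher and 315 lower), but 2 with DESeq2, 1 with all genes of at least 1 count, and 0 to 1 with 1 library left out (1 without Control replicate 4). G3D calls numbered 10, but 213 with DESeq2, 4 with limma-voom, 30 with all genes of at least 1 count, and 1 to 221 with 1 library left out (221 without G3D replicate 5, 1 without Control replicate 6 or 8 or G3D replicate 7). The labels do not say whether same-numbered libraries of different groups are related, and the main fit did not pair them. Over 8 such pairs the correlation of their deviations ran from -0.129 to 0.138, and for differently numbered pairs from -0.209 to 0.238. These values cannot decide whether libraries were paired. Green and Control share no number. With the replicate block there were 4 White calls and 3 G3D calls. Of the Green libraries only replicate 7 shares its number with another library, so this fit judges Green by that library alone. Its link to Control runs only through White and G3D libraries. In this fit the median Green fold change over the 33 genes was 0.00682. The Green log2 fold changes of ENSGALG00000001314 and ENSGALG00000038364 were 0.20 and 0.76. Nothing is concluded from these Green values. The median of 0.16 ran from 0.0304 (without Green replicate 9) to 0.188 with 1 library left out. With 1 library left out, ENSGALG00000001314 ran from -0.65 to 0.0291 (the higher value without Green replicate 2) and ENSGALG00000027592 from -0.66 to 0.0236 (the higher value without Control replicate 6). Chosen after seeing the data, leaving out each Green or Control library gave 9 to 13 genes with Green at least 0.3 above Control, 4 to 8 with every Green above every Control library, and 18 to 24 with Green above Control. The cause of these changes was not tested. With 3 or 4 libraries per group, the median edgeR SE of Green over the 33 genes was 0.31, which limits what can be detected. A higher mean count did not always go with a smaller SE. ENSGALG00000042389, with a mean count of 728, had 1.07, and ENSGALG00000054277, with 164, had 0.20.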
